A study of Mus musculus with 18 samples.

Results

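Regulatory T cells (TR) negative for the Id3 reporter signal were compared with central TR positive for it, in lymph node and in spleen. The question asked here was how far that difference depended on the tissue. The quantity is a difference of differences on the log2 scale: the change from Id3+ central TR (Id3+ cTR) to Id3- effector TR (Id3- eTR) in peripheral lymph node, minus the same change in spleen. It was computed for every gene tested, and 12 of the 18 libraries of the series enter it, 3 in each of 4 groups. A negative value means that the gene stood lower in Id3- eTR relative to Id3+ cTR in lymph node than it did in spleen. All mice were C57BL/6 littermates of the genotype Id3-GFP x Foxp3-mRFP, which reports both genes, and the label of each library gives the mouse (84, 86 or 87), each of which gave every group. CD4+ T cells were enriched on microbeads and sorted, and 500 cells per library went straight into SMART-Seq v4 lysis buffer, followed by a modified NexteraXT preparation. Id3+ cTR were gated as CD44-low among other markers, whereas the label of Id3- eTR gives no CD44 gate. Age and sex are not given in the sources used here. The groups are therefore populations of a reporter strain that share all alleles and differ by sort gate and tissue.

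Id3 is an inhibitor of DNA binding: it pairs with E proteins, which recognise E box sequences, and keeps them off DNA. Central TR recirculate through lymphoid organs with the help of homing receptors such as CCR7, while effector TR have met antigen, lose part of that recirculation programme and gain receptors for entry into tissue. Spleen is entered from the blood without the high endothelial venules that control entry into lymph nodes, so homing and adhesion receptors are the genes for which the organ is often considered.

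The 12 libraries held 1600782 to 2988373 counts and 13701 to 14751 detected genes. The lowest totals belonged to spleen Id3+ cTR of mice 84 and 87, and mitochondrial genes took 0.376% to 0.652% of the counts, most in spleen Id3+ cTR (0.552% ± 0.115, SD, n = 3). No pair of replicate libraries agreed within sampling noise, so each counted as a sample. Id3 itself had 61.3, 83.7 and 69.2 CPM (counts scaled to a common library total, with TMM factors, for mice 84, 86 and 87) in lymph node Id3- eTR against 282, 244 and 282 in lymph node Id3+ cTR. In spleen, Id3 had 45.3, 70.2 and 60.1 CPM against 306, 254 and 274. The levels did not overlap between the sorted populations in either tissue, as the gate requires, and the tissue-dependent change of Id3 was 0.34 with a 95% interval from -0.13 to 0.80.

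The tissue-dependent change was called for 3 of 12445 genes (0.0241% called; edgeR quasi-likelihood test, Benjamini-Hochberg adjusted p under 0.05). All 3 were lower: Itga4, the integrin alpha 4 subunit, P2rx7, a cation channel opened by extracellular ATP, and Cdca7l, a nuclear protein known as a partner of Myc. None was higher, while at an unadjusted p under 0.05 there were 856 genes (6.88%), 444 higher and 412 lower. With the same design limma-voom called 1 gene, Itga4, and DESeq2 called 47, of which 38 were higher and 9 lower, and those 47 included all 3. By contrast, the change itself was called for 1526 genes in spleen (12.3%) and for 1610 in lymph node (12.9%). The spleen and lymph node changes share no library, and over the 11677 genes with more than 3 counts in each of the 4 groups they had Pearson's r of 0.68 and Spearman's rho of 0.549, across genes, which are not independent replicates.

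**Figure D1:**
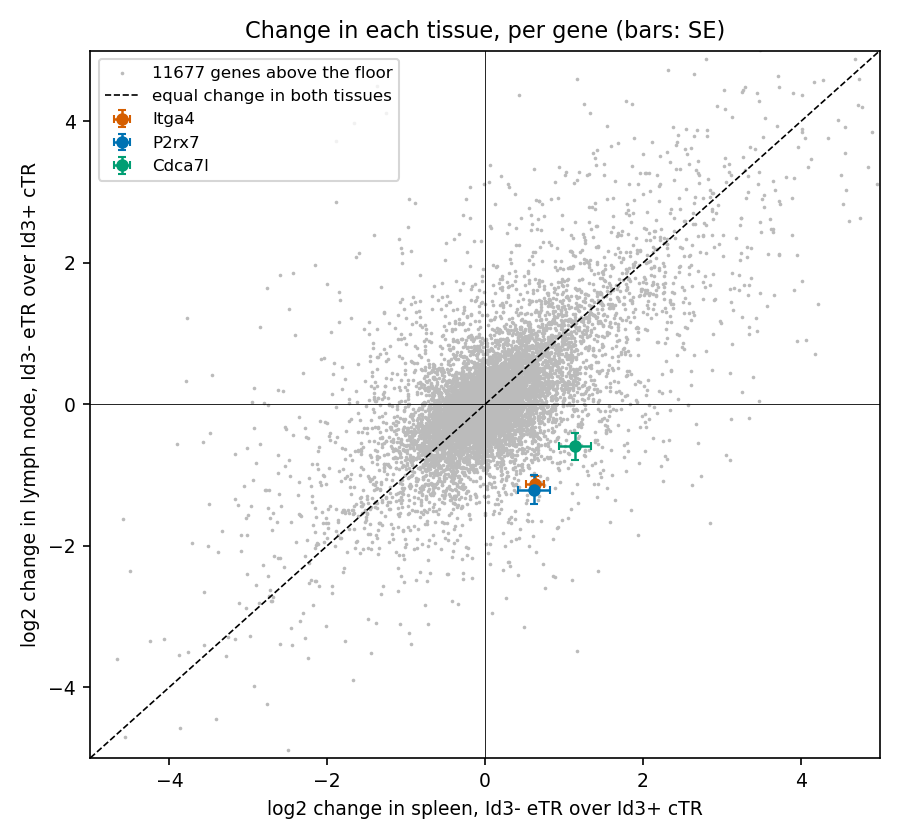
Log2 change of Id3- eTR over Id3+ cTR in spleen (horizontal) and lymph node (vertical). Each grey point is one of 11677 genes above the floor of 3 counts per group, 39 of them outside the axes, the dashed line marks equal change, and coloured points are the 3 called genes with standard errors; all 3 lie right of zero in spleen and below zero in lymph node.

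The RefSeq sequence upstream of the 3 called genes is shown because these were the genes whose population difference was called as tissue-dependent. Each line gives 250 bases ending just before the RefSeq start on the plus strand of GRCm38.p6, 5′ to 3′, with the motif matches searched for in capitals. The motifs, searched on both strands, were the E boxes CAGCTG and, read on either strand, CAGGTG (on the other strand CACCTG), to which E proteins bind, and the KLF-type letters CCACCC (on the other strand GGGTGG).
Itga4: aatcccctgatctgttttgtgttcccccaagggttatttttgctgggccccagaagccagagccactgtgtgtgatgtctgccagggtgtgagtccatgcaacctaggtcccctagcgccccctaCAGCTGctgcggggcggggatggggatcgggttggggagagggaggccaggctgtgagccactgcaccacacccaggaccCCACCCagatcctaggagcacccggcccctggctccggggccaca
P2rx7: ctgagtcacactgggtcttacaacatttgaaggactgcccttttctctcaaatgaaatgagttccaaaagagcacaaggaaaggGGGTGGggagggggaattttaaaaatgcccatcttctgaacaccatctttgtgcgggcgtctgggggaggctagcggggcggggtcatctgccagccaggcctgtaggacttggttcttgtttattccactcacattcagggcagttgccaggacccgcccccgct
Cdca7l: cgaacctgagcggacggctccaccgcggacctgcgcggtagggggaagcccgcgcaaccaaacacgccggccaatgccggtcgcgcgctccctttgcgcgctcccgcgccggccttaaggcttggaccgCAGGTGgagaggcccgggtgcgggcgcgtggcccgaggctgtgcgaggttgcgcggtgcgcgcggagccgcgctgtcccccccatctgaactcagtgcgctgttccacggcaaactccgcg
These windows lie at chr2:79255176-79255425 (Itga4), chr5:122643677-122643926 (P2rx7, the more upstream of 2 starts in the table) and chr12:117843611-117843860 (Cdca7l). Itga4 held 1 E box, beginning 125 bases before the start, and 1 KLF-type match, 45 bases before it. P2rx7 held 1 KLF-type match, 166 bases before its start, and no E box of these letters. Cdca7l held 1 E box, 121 bases before its start, and no KLF-type match. Of 32851 promoter windows of that length, 27.7% held one of the E boxes and 28.1% a KLF-type match, so matches in 2 of 3 windows are a description and no site. The windows were 64.0%, 53.6% and 73.2% G or C in the same order, with a median of 52.4% over all windows.

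Itga4 (ENSMUSG00000027009) had the smallest p of all genes and moved in opposite directions in the tissues. Its subunit pairs with integrin beta 1 to bind VCAM-1 and fibronectin, or with beta 7 to bind MAdCAM-1 on mucosal venules. In spleen Id3- eTR it had 729, 830 and 732 CPM (mice 84, 86 and 87), against 536, 486 and 458 in spleen Id3+ cTR. In lymph node Id3- eTR it had 164, 217 and 169 CPM, against 395, 399 and 412 in lymph node Id3+ cTR. The 4 groups did not overlap: spleen Id3- eTR was the highest and lymph node Id3- eTR the lowest. Before scaling, Itga4 held 418 to 2106 counts per library, where the highest count of any gene was 3306 to 4696. Itga4 rose 1.55-fold in spleen (log2 0.63, adjusted p = 0.0013, edgeR) and fell 2.19-fold in lymph node (log2 -1.13, adjusted p = 4.8e-06). Among genes called in both tissues it was the only one (1 gene) whose directions were opposite.

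The tissue-dependent change of Itga4 was -1.76 ± 0.17 on the log2 scale (SE, adjusted p = 0.000109, edgeR), with a 95% interval from -2.11 to -1.41. Mouse by mouse it was -1.70, -1.65 and -1.95, so the direction was shared by 3 of 3 mice. Seen by population, Id3- eTR held 4.16-fold less Itga4 in lymph node than in spleen (log2 -2.06, adjusted p = 8.35e-08), whereas in Id3+ cTR the difference was -0.30 (adjusted p = 0.537). The call was kept under 22 of 23 alternative settings, including each of the 12 omissions of a single library. Without mouse 87 the value was -1.68 and the adjusted p 0.283, a fit that rests on 2 mice per group.

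The third population of the series, Id3+ eTR, did not enter this contrast and gives Itga4 levels from 6 further libraries. In lymph node Id3+ eTR it had 287, 320 and 301 CPM, between the 2 other lymph node groups. In spleen Id3+ eTR it had 521, 680 and 685 CPM, below spleen Id3- eTR and overlapping spleen Id3+ cTR. In every mouse and population the lymph node value was thus under the spleen value.

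The partner chains of Itga4, looked up after its values were seen, gave other patterns. Itgb1, the beta 1 chain, rose in Id3- eTR in spleen (log2 1.83) and in lymph node (log2 1.58), and its tissue-dependent change was -0.25 ± 0.17 (adjusted p = 0.876). In CPM, Itgb1 had 385, 460 and 412 in lymph node Id3- eTR and 444, 463 and 416 in spleen Id3- eTR, ranges that overlap. Itgb7, the beta 7 chain, was 0.11 ± 0.21 (adjusted p = 0.981), with a 95% interval from -0.33 to 0.55.

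P2rx7 (ENSMUSG00000029468) had the largest tissue-dependent decrease of the 3 called genes. The channel it encodes is opened by high extracellular ATP and, on mouse T cells, by ADP-ribosylation from NAD. In spleen Id3- eTR it had 238, 183 and 178 CPM, against 127, 152 and 110 in spleen Id3+ cTR. In lymph node Id3- eTR it had 38.9, 69.0 and 41.7 CPM, against 116, 128 and 103 in lymph node Id3+ cTR. Among these 12 libraries, those of lymph node Id3- eTR were the lowest and those of spleen Id3- eTR the highest. The high spleen level was not particular to Id3- eTR. Outside the contrast, Id3+ eTR had 190 to 225 CPM in spleen and 107 to 153 in lymph node. The change in lymph node was a fall of 2.31-fold (log2 -1.21, adjusted p = 0.00066, edgeR), and in spleen the value was 0.62 (adjusted p = 0.0534).

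For P2rx7 the tissue-dependent change was -1.83 ± 0.29 (adjusted p = 0.038), with a 95% interval from -2.43 to -1.22. Per mouse it was -2.46 (mouse 84), -1.14 (mouse 86) and -1.96 (mouse 87), negative in 3 of 3. Id3- eTR held 3.99-fold less P2rx7 in lymph node than in spleen (log2 -2.0, adjusted p = 0.000233), and the corresponding value in Id3+ cTR was -0.17 (adjusted p = 0.909). The call of P2rx7 sat near the threshold: it remained in 8 of 23 alternative settings, with values from -2.27 to -1.52. Of the 12 omissions of a single library, only those of mouse 86 in lymph node and in spleen Id3- eTR kept it, and the other 10 gave adjusted p-values from 0.0702 to 0.158. Omitting mouse 84 gave an adjusted p of 0.49 (-1.52) and omitting mouse 87 one of 0.67 (-1.77).

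A pair of P2X-related genes chosen after their values were seen can be set beside P2rx7. Art2b, the ADP-ribosyltransferase that modifies P2X7 on mouse T cells, had 33.4, 50.8 and 63.8 CPM in lymph node Id3- eTR against 111, 143 and 120 in spleen Id3- eTR. Those ranges did not overlap, and the lymph node value was lower by 1.33 on the log2 scale (-1.33, adjusted p = 0.0124, edgeR). Its tissue-dependent change of -1.08 ± 0.31 was not called (adjusted p = 0.44, edgeR). Outside the contrast, Art2b was also lower in lymph node in Id3+ eTR, with 36.7 to 69.6 CPM against 103 to 125 in spleen. P2rx4, the neighbouring P2X channel gene, was -0.46 ± 0.35 (adjusted p = 0.892).

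Cdca7l (ENSMUSG00000021175) differed from the other two genes in where the tissues parted. In spleen Id3- eTR it had 77.7, 60.7 and 78.9 CPM, against 37.7, 32.4 and 29.0 in spleen Id3+ cTR. In lymph node Id3- eTR it had 59.4, 50.1 and 40.6 CPM, against 87.1, 60.2 and 78.8 in lymph node Id3+ cTR. The spleen Id3+ cTR libraries were the lowest 3 of the 12, while the other groups lay closer together. Outside the contrast, Id3+ eTR had 81.0 to 105 CPM in spleen and 92.4 to 108 in lymph node. Cdca7l rose 2.2-fold in spleen (log2 1.14, adjusted p = 0.00083, edgeR), and in lymph node the value was -0.59 (adjusted p = 0.0504).

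The tissue-dependent change of Cdca7l was -1.73 ± 0.28 (adjusted p = 0.038), with a 95% interval from -2.31 to -1.15. In mice 84, 86 and 87 it was -1.57, -1.15 and -2.36. Between the organs the value was -0.54 in Id3- eTR (adjusted p = 0.404) and 1.19 in Id3+ cTR (adjusted p = 0.099), neither of them called. Spleen Id3+ cTR is also the group with the 2 lowest totals. Leaving those 2 libraries out gave -1.76 for Cdca7l (adjusted p = 0.199), and its call remained in 7 of 23 alternative settings. Single libraries ended it in 10 of 12 omissions, with adjusted p-values from 0.0539 to 0.183, the exceptions being those of mouse 86 in lymph node Id3+ cTR and in spleen Id3- eTR. Omitting a whole mouse ended it each time (mouse 84, -1.81; mouse 86, -1.99; mouse 87, -1.43).

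**Figure D2:**
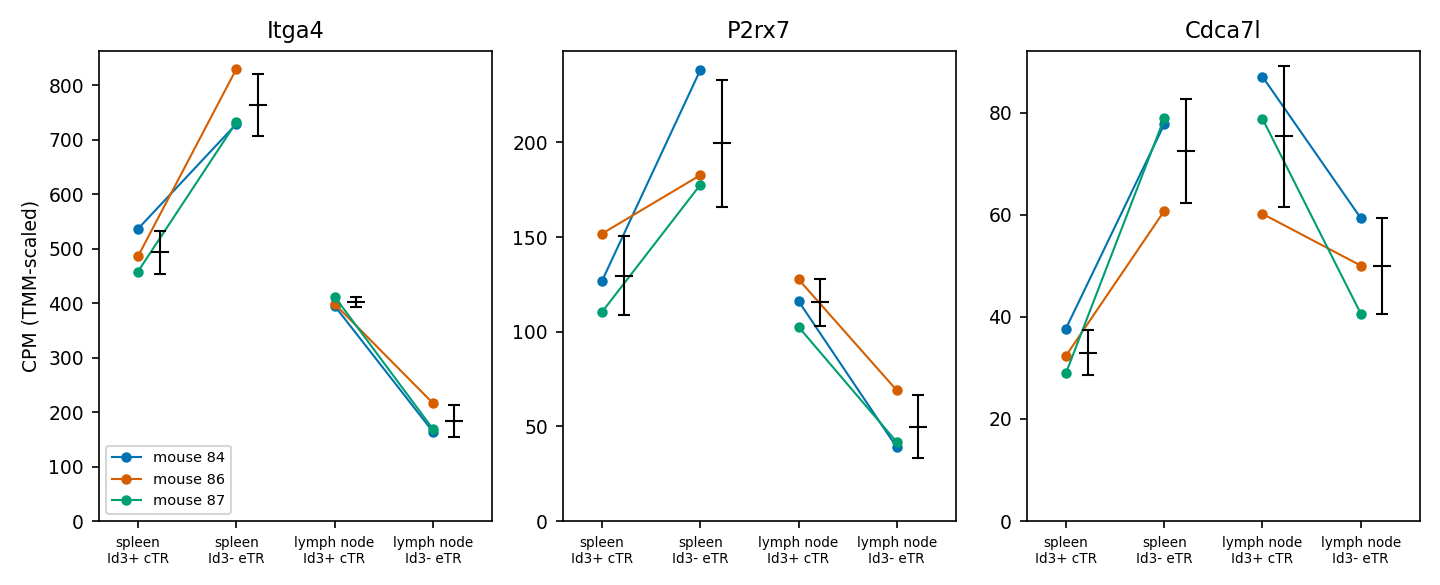
CPM (TMM-scaled) of the 3 called genes in each of the 12 libraries, by group on the horizontal axis. Coloured lines join the libraries of a mouse within a tissue and black marks show mean ± SD (n = 3); all lines climb from Id3+ cTR to Id3- eTR in spleen and descend in lymph node.

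The libraries do not mark strand, so reads of overlapping genes cannot be separated. In the GENCODE M21 annotation Itga4 overlaps Cerkl, and Cdca7l overlaps Dnah11 and a processed pseudogene, all on the opposite strand. Cerkl was tested on its own and its tissue-dependent change was -0.74 ± 0.79 (adjusted p = 0.933).

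The LN-over-spleen comparisons within a population give the 2 arms of the same quantity. In Id3- eTR, 38 genes (0.305% called) differed between lymph node and spleen, 18 higher and 20 lower in lymph node, and Itga4 and P2rx7 were among them. In Id3+ cTR a single gene was called (1 gene, 0.00804%), Apol9a, an apolipoprotein L family member, named after its value was seen. Apol9a was also called in Id3- eTR, and its lymph node values of 75.9, 74.2 and 53.8 CPM in Id3- eTR and 71.9, 49.9 and 63.2 in Id3+ cTR stood above all spleen values, which ran from 11.8 to 25. The organ difference of Apol9a was 1.97 in Id3- eTR and 2.08 in Id3+ cTR on the log2 scale, and its tissue-dependent change was -0.11 ± 0.39. Apol9a has a near-identical neighbour, Apol9b, so its counts are uncertain. These 2 counts were unsteady. DESeq2 called 145 genes in Id3- eTR and 108 in Id3+ cTR, the latter adjusted over only the 864 genes its filter kept, without Apol9a, and limma-voom called 71 and 0, and the difference between the counts was not tested. Omitting 1 library or mouse gave 3 to 39 calls in Id3- eTR and 0 to 24 in Id3+ cTR.

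Genes were also split by their calls within each tissue. The classes are cut on the same 2 changes whose difference is given, so their medians and counts describe them and support no dependence on class. In 633 genes called higher in Id3- eTR in both tissues, the tissue-dependent change had a median of 0.00874, and edgeR called none of them; at unadjusted p under 0.05 there were 67, limma-voom called 0 and DESeq2 5. In 311 genes called lower in both tissues the median was 0.0394, none was called by edgeR, 39 passed at unadjusted p, limma-voom called 0 and DESeq2 7. Another 581 genes were called in spleen only and 665 in lymph node only, and edgeR called the difference for 1 gene of each of these classes, Cdca7l and P2rx7. At unadjusted p there were 181 of the 581 (31.2%) and 177 of the 665 (26.6%), against 6.88% of all genes, limma-voom called 0 of the 1246 genes and DESeq2 32. The precision was limited: the median standard error was 0.443, the median half-width of the 95% interval 0.937, and for 4599 genes the interval lay within 1 log2 unit of zero on both sides.

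Below the threshold, 18 of the genes next by p, with symbols and with all 4 groups above the floor, were taken after their values were seen. Their adjusted p-values ran from 0.051 to 0.257, so edgeR called none, and limma-voom called 0. DESeq2 called all 18, against 47 of all 12445 genes. The choice by edgeR p on the same libraries favours such calls, so they are no separate evidence. Of the 18, 14 had positive and 4 negative values, and in all 18 the sign was shared by 3 mice, which the choice by p on the same mice largely fixes. Over all genes tested the 3 mice shared a sign in 3546 of 12445 (28.5%). Among the 14 positive ones, 12 were called lower in Id3- eTR in spleen, as were 634 of all 12445 genes. Of those 12, 8 had a negative value in lymph node, smaller than in spleen, and 4 a positive one. For 11 of the 18 the lymph node change was not called, and it was called for 12.9% of all genes. The contrast subtracts the spleen change, so the choice by its p favours positive genes that fell in spleen, and nothing is read from these counts.

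Nsg2, a vesicle trafficking protein known from neurons, stood just outside the threshold. It had 43.2, 45.7 and 28.5 CPM in lymph node Id3- eTR and 9.35, 11.8 and 11.5 in spleen Id3- eTR, against 163, 168 and 126 in lymph node Id3+ cTR and 148, 145 and 136 in spleen Id3+ cTR. The Id3+ cTR groups overlapped, and the Id3- eTR groups were lower and did not overlap each other. Nsg2 fell in spleen (log2 -3.72) and in lymph node (log2 -1.96), and the tissue-dependent change was 1.76 ± 0.29 (adjusted p = 0.051). Just inside the threshold, Cdca7l and P2rx7 both had an adjusted p of 0.038.

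The genes of the sort are no independent evidence within a tissue. Cd44, an activation marker of the gate, had a tissue-dependent change of 0.09 (95% interval -0.65 to 0.84), Foxp3, the TR lineage factor, 0.19 (-0.22 to 0.60), and Cd4 -0.17 (-0.65 to 0.32). The sign of Cd44 turned with the library left out, from -0.22 to 0.32.

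Myc, a transcription factor of growth and ribosome synthesis, was the only one of the 4 negative genes that fell in both tissues. It had 68.0, 58.8 and 73.8 CPM in lymph node Id3- eTR and 91.7, 110 and 78.2 in spleen Id3- eTR, against 246, 278 and 290 in lymph node Id3+ cTR and 150, 205 and 208 in spleen Id3+ cTR. The 4 groups did not overlap, with lymph node at both ends. Myc fell by 1.01 in spleen and by 2.02 in lymph node on the log2 scale, and the difference was -1.01 ± 0.22 (adjusted p = 0.215).

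Several near-threshold genes encode receptors or signalling proteins of T cells. Tlr7, the endosomal receptor for single-stranded RNA, had 76.6, 48.6 and 64.9 CPM in lymph node Id3- eTR and 14.8, 16.0 and 3.48 in spleen Id3- eTR, and its tissue-dependent change was 2.82 ± 0.65 (adjusted p = 0.257). Cd7, a T cell surface protein, was 1.44 ± 0.33 and Trat1, an adaptor of the T cell receptor complex, 1.04 ± 0.24, both with an adjusted p of 0.257. Trat1 had 319, 270 and 263 CPM in lymph node Id3- eTR against 158, 187 and 157 in spleen Id3- eTR, while the Id3+ cTR ranges of 281 to 325 and 306 to 415 overlapped. Cysltr2, a receptor for cysteinyl leukotrienes, rose in both tissues (log2 2.50 in spleen, 5.07 in lymph node) and had similar Id3- eTR levels, 48.7, 53.7 and 45.3 CPM in lymph node and 50.7, 42.4 and 37.2 in spleen. The tissues were apart in Id3+ cTR, where Cysltr2 had 1.89, 1.32 and 1.06 CPM in lymph node and 5.85, 12 and 4.32 in spleen, and the tissue-dependent change was 2.57 ± 0.54 (adjusted p = 0.211).

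The smallest of the 18 values belonged to Ccnd2, cyclin D2, whose libraries were tightly grouped. Ccnd2 had 541, 565 and 536 CPM in lymph node Id3- eTR and 440, 465 and 446 in spleen Id3- eTR, against 593, 578 and 620 in lymph node Id3+ cTR and 667, 660 and 655 in spleen Id3+ cTR. All 4 groups were separate, and the tissue-dependent change was 0.43 ± 0.09 (adjusted p = 0.215). Ccp110, a centriole protein, had the highest of the 18 values at 3.80 ± 0.75 (adjusted p = 0.141), and Slc2a8, a sugar transporter, the lowest at -3.00 ± 0.71 (adjusted p = 0.257), both with no library of the 12 above 29.9 CPM.

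**Figure D3:**
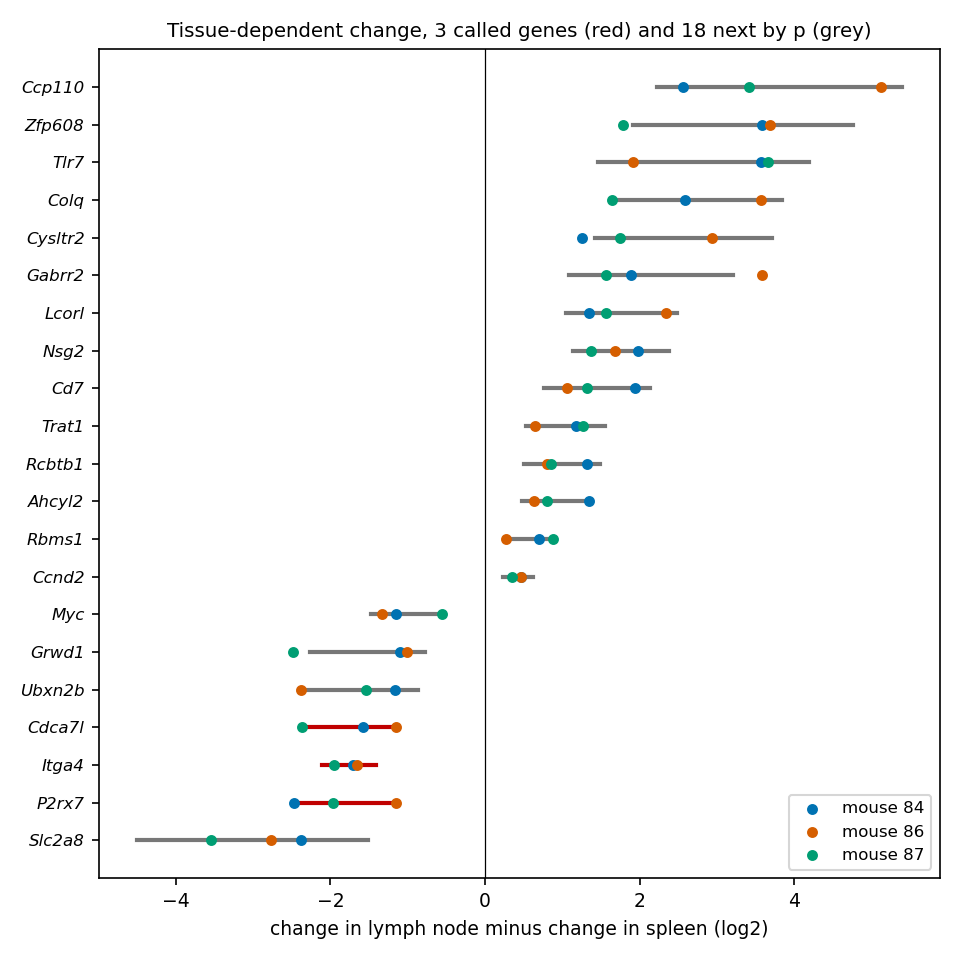
Change in lymph node minus change in spleen (log2) for the 3 called genes (red bars) and 18 genes next by p (grey bars), 1 gene a row. Bars are 95% intervals of the edgeR fit and points the per-mouse values from log2 CPM; in every gene shown the 3 mice fell on one side of zero, and in 14 genes above it.

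The remaining genes were read through 30 lists of pathways and cell type markers, which held 383 different genes that were tested. Of these, edgeR called 1 (Itga4), against 0.0241% of all genes, limma-voom the same 1, and DESeq2 5. Unadjusted p was under 0.05 for 43 higher and 23 lower, together 17.2% of the list genes against 6.88% of all genes; the lists were chosen with earlier results known, and nothing is read from that share. List medians are over the members above the floor of 3 counts per group, and the median over all such genes was 0.016. Counts of positive and negative values are over the tested members, and of all 12445 genes tested 6407 had a positive and 6038 a negative value.

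Among the integrins, 14 of 16 listed genes were tested, 1 was called lower (Itga4), and at unadjusted p 2 were higher (Itga2 and Itgb8) and 2 lower (Itga4 and Itgb3). The median over 11 members was 0.17 on the log2 scale. Itgb8, the chain that with integrin alpha v activates latent TGF-beta, rose in both tissues and had 209, 213 and 186 CPM in lymph node Id3- eTR against 131, 78.6 and 130 in spleen Id3- eTR. Its tissue-dependent change was 1.31 ± 0.35 (adjusted p = 0.347), in the opposite direction to Itga4. Itgb3, the partner chain of integrin alpha v in the vitronectin receptor and named after its values were seen, had the same direction as Itga4. It had 38.1, 35.4 and 30.7 CPM in lymph node Id3- eTR, below the other 3 groups of the contrast, which ran from 58.2 to 75.3. The low level was not particular to that group: outside the contrast, Id3+ eTR had 26.3 to 32.5 CPM in lymph node and 36.1 to 76.4 in spleen. The tissue-dependent change of Itgb3 was -0.95 ± 0.33 (adjusted p = 0.612), negative in 3 of 3 mice. Itgae, which pairs with beta 7 to bind E-cadherin and was named after its values were seen, had 799, 733 and 693 CPM in lymph node Id3- eTR and 202, 127 and 99.8 in spleen Id3- eTR. The organ difference of Itgae in Id3- eTR was 2.38 (adjusted p = 0.0185, edgeR). Its tissue-dependent change of 1.53 ± 0.74 was not called (adjusted p = 0.737, edgeR), with mouse 87 at -0.73 against 1.16 and 2.48 in the others. The value of mouse 87 rests on a spleen Id3+ cTR level of 0.617 CPM, near zero, against 16.0 and 20.8 in the other mice. Its spleen change was 6.16 against 3.23 and 2.93, and its lymph node change 5.43 against 4.39 and 5.40.

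Of 19 recirculation and resting T cell genes none was called by edgeR, limma-voom or DESeq2. The list's median log2 change was -1.83 in spleen and -1.89 in lymph node, and that of the tissue-dependent change 0.10. At unadjusted p, 3 were higher, Ccr7, Foxo1 and Foxp1, and 1 lower, Bach2. Foxo1, a factor of resting T cells, was 0.57 ± 0.17 (adjusted p = 0.455) and Ccr7, the lymph node homing receptor, 0.53 ± 0.22 (adjusted p = 0.692). Bach2, a repressor of effector genes, had 24.0, 21.6 and 28.9 CPM in lymph node Id3- eTR and 36.0, 38.1 and 37.9 in spleen Id3- eTR, and a value of -0.70 ± 0.25 (adjusted p = 0.639).

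Among 16 core TR genes none was called by edgeR, limma-voom or DESeq2, 13 values were positive and the median was 0.28, and 5 passed at unadjusted p, all higher. Il2ra, the interleukin-2 receptor alpha chain, had 683, 606 and 577 CPM in lymph node Id3- eTR against 396, 483 and 325 in spleen Id3- eTR. Its lymph node and spleen Id3+ cTR ranges, 594 to 707 and 628 to 840, overlapped, and the tissue-dependent change was 0.78 ± 0.23 (adjusted p = 0.45). Ctla4, an inhibitory receptor through which TR act on antigen-presenting cells, rose in spleen (log2 0.52) and lymph node (log2 0.96), with a difference of 0.43 ± 0.15 (adjusted p = 0.611). In the effector TR list 26 of 26 genes were tested, edgeR, limma-voom and DESeq2 called none, 4 were higher and 1 lower at unadjusted p, and the median was 0.10 over 21 members. Lgals1, the galectin-1 gene, had the smallest p there, at 0.61 ± 0.20 (adjusted p = 0.563).

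Chemokine and lipid homing receptors had a median of -0.12 over 14 members; the 21 tested genes had no call by any of the 3 tools, and 4 were higher and 2 lower at unadjusted p. Gpr183, the oxysterol receptor that places lymphocytes within follicles and spleen, rose in spleen (log2 0.62) and was 0.06 in lymph node (adjusted p = 0.793). Its tissue-dependent change was -0.56 ± 0.15 (adjusted p = 0.371), negative in 3 of 3 mice. Ccr9, the receptor for gut homing, had 1.97, 13.2 and 0 CPM in lymph node Id3- eTR and 27.0, 44.7 and 44.5 in spleen Id3- eTR, ranges that did not overlap, and a value of -2.73 ± 1.11 (adjusted p = 0.692).

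In the Myc and ribosome biogenesis list, 13 of 19 tested values were negative, the median was -0.28, and 5 passed at unadjusted p, all lower: Myc, Odc1, Srm, Ppan and Rrp12. None was called by edgeR or limma-voom, and DESeq2 called Myc. Summed over the list, lymph node Id3+ cTR held 2743 to 2838 CPM and spleen Id3+ cTR 2462 to 2548, whereas Id3- eTR held 1873 to 1999 in lymph node and 1819 to 1992 in spleen. The Id3- eTR sums of the tissues overlapped, and the Id3+ cTR sums did not. Srm, the spermidine synthase, was -0.57 ± 0.24 and Odc1, the first enzyme of polyamine synthesis, -0.77 ± 0.32, each with an adjusted p of 0.692.

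Cell cycle genes were uneven. Of 24 mitosis genes 4 were higher and 1 lower at unadjusted p, and the median was 0.52 over 14 members. None was called by edgeR or limma-voom, and DESeq2 called Cenpf, a kinetochore protein with too few counts in a group for a fold. The list summed to 701 to 1442 CPM in lymph node Id3- eTR, 368 to 724 in spleen Id3- eTR, 353 to 466 in lymph node Id3+ cTR and 372 to 408 in spleen Id3+ cTR. The lymph node Id3- eTR sum was the higher of the Id3- eTR pair in every mouse, but the ranges overlapped. Cdc20, an activator of the anaphase-promoting complex, had 41.7, 19.7 and 14.6 CPM in lymph node Id3- eTR and 8.27, 8.47 and 3.48 in spleen Id3- eTR, and a value of 2.65 ± 0.71 (adjusted p = 0.332). For DNA replication, 8 of 19 values were positive, the median was -0.03, and no tool called a gene, with 1 higher and 2 lower at unadjusted p. The smallest p was that of Lig1, DNA ligase 1, at -1.35 ± 0.39 (adjusted p = 0.419).

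Among T cell receptor-induced genes 3 of 15 were lower at unadjusted p and none higher, edgeR and limma-voom called none and DESeq2 called Egr1 and Myc. Egr1, an immediate-early factor, had 123, 52.6 and 82.0 CPM in lymph node Id3- eTR and 162, 199 and 211 in spleen Id3- eTR, against 80.6, 86.6 and 89.8 in lymph node Id3+ cTR and 52.7, 60.7 and 46.3 in spleen Id3+ cTR. The spleen groups were separate and the lymph node groups overlapped, and the tissue-dependent change was -1.83 ± 0.45 (adjusted p = 0.303). Egr1 is also a gene of dissociation stress. The 20 genes of that list summed to 5375 to 5544 CPM in lymph node Id3- eTR and 5937 to 7661 in spleen Id3- eTR, against 4976 to 5344 and 5661 to 6878 in Id3+ cTR, higher in spleen in both populations, and the part of handling was not tested.

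The other lists had no call by edgeR or limma-voom, and DESeq2 called 1 further gene in them, Slamf6, a lymphocyte receptor of the follicular TR list, and again Egr1, which stands in the dissociation stress list. Slamf6 had 663, 576 and 549 CPM in lymph node Id3- eTR and 426, 567 and 436 in spleen Id3- eTR, ranges that overlap, and an edgeR value of 0.66 ± 0.17 (adjusted p = 0.328). The follicular TR list had a median of 0.26 over 10 members, with 5 of 14 tested genes higher and 0 lower at unadjusted p. For suppressive function the median was 0.43 over 13 members, with 3 higher and 1 lower of 14, and for genes of the response to TGF-beta and retinoic acid it was 0.25 over 14, with 2 higher and 1 lower. Rarg, a retinoic acid receptor, led the latter by p at 1.48 ± 0.40 (adjusted p = 0.35). The selectin ligand and glycan list had 1 higher and 1 lower of 9, with a median of 0.29 over 7 members, and the higher one, Selplg, a P-selectin ligand, was 0.37 ± 0.13 (adjusted p = 0.639).

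Among Bcl2 family and survival genes, 3 of 13 were higher and 0 lower at unadjusted p, and the median was 0.14. Bcl2l11, which encodes the pro-apoptotic protein Bim, fell in spleen (log2 -2.12) and was -0.66 in lymph node (adjusted p = 0.123). It had 44.4, 40.9 and 52.8 CPM in lymph node Id3- eTR against 14.0, 18.4 and 24.0 in spleen Id3- eTR, groups that did not overlap, and a tissue-dependent change of 1.47 ± 0.38 (adjusted p = 0.328). The 6 tested E and Id protein genes, partners and relatives of Id3, had a median of 0.21, and 0 passed at unadjusted p in either direction. The smallest p was that of Tcf4, the E protein E2-2, at 2.02 ± 1.14 (adjusted p = 0.801, edgeR), with mouse 84 at -0.68 and mouse 87 at 6.20. Tcf4 was low, with 0.695 to 5.18 CPM and 25 counts in all in spleen Id3- eTR. The tissue TR list had a median of 0.04 over 14 members, with 0 higher and 1 lower of 20 at unadjusted p. The lower one was Bhlhe40, a transcriptional repressor, which rose in spleen (log2 3.31) and in lymph node (log2 2.23). The difference was -1.09 ± 0.37 (adjusted p = 0.612, edgeR).

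TNF receptor and NF-kB genes had a median of -0.0073 over 17 members, with 2 higher and 1 lower of 18 at unadjusted p, and cytokine receptor and STAT5 genes one of 0.05 over 23, with 5 higher and 1 lower of 26. Nfkbie, an inhibitor of NF-kB, was -1.14 ± 0.32 (adjusted p = 0.403), negative in 3 of 3 mice. Helper lineage genes had a median of 0.31 over 7 members, with 1 higher and 1 lower of 11, led by p by Ahr, the aryl hydrocarbon receptor (1.24 ± 0.54, adjusted p = 0.705), and immediate-early and dissociation stress genes one of -0.15 over 19, with 0 higher and 2 lower of 20. In metabolism, glycolysis had a median of -0.09 over 16 genes, with 0 higher and 1 lower, and sterol and fatty acid synthesis one of 0.10 over 20, with 1 higher and 0 lower of 21. Their smallest p-values were those of Gpi1, glucose-6-phosphate isomerase (-0.33 ± 0.15, adjusted p = 0.709), and Acaca, acetyl-CoA carboxylase (1.18 ± 0.55, adjusted p = 0.719). Interferon-stimulated genes had a median of -0.01 over 25, with 1 higher and 0 lower. The higher one was Oas2, an antiviral enzyme (3.53 ± 1.57, adjusted p = 0.709, edgeR). Its spleen Id3- eTR level was 0 to 1.74 CPM, from 5 counts in all, so the size of that value is uncertain.

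**Figure D4:**
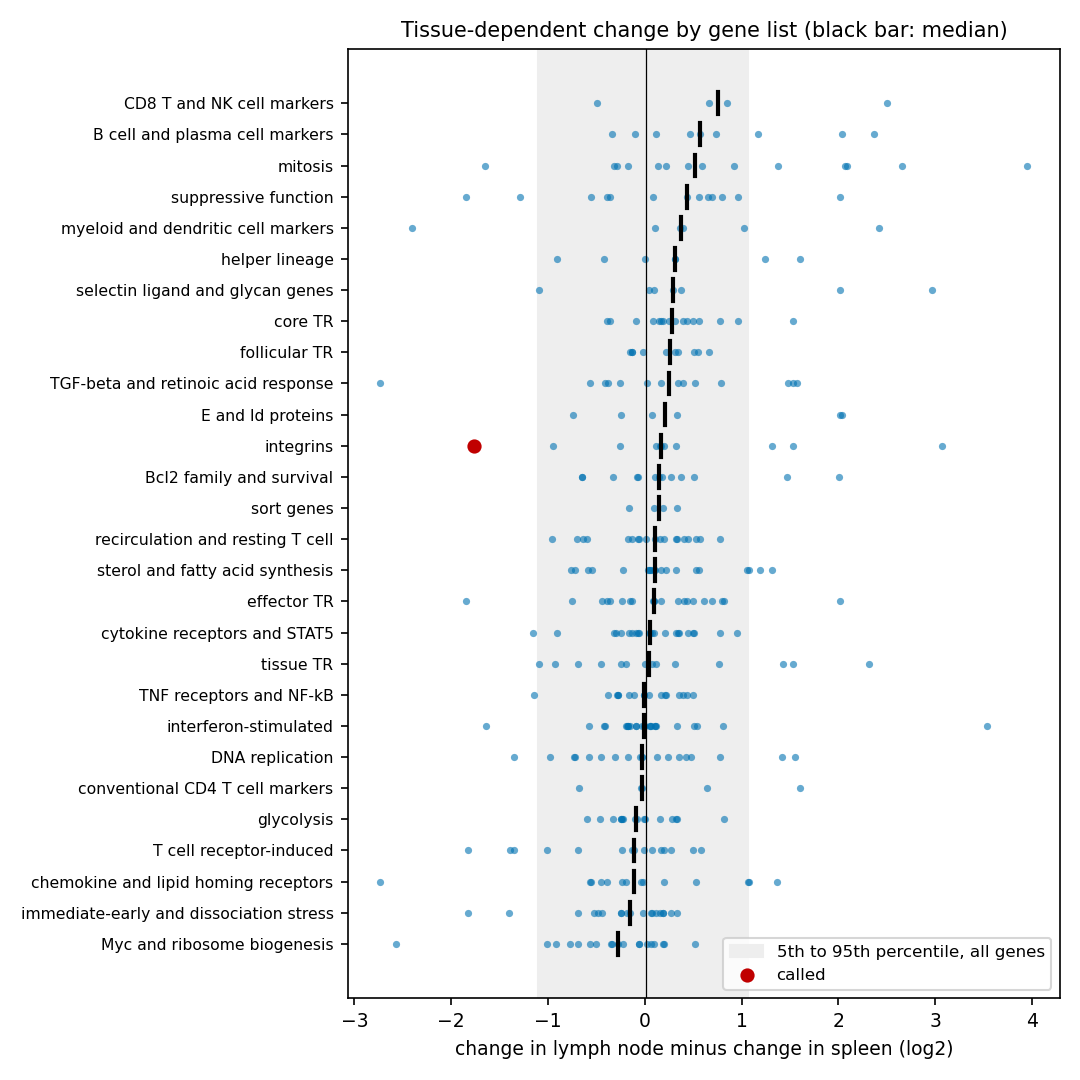
Tissue-dependent change (log2, horizontal) of the members of the lists with at least 3 members above the floor of 3 counts per group. Blue points are genes, black bars list medians, and the grey band the 5th to 95th percentile of all genes above the floor (-1.1 to 1.07); the only called member, Itga4 (red), lies at -1.76.

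Markers of other cell types were followed because the cells were sorted in small numbers from 2 organs. In bulk samples, fewer cells of a type and less RNA per cell cannot be told apart. Erythroid and platelet markers, 13 of 13 of which had a count, summed to 57.0 to 200 CPM in spleen Id3- eTR and 211 to 337 in spleen Id3+ cTR, against 8.55 to 19.0 and 5.30 to 13.9 in lymph node. They moved with tissue and, in spleen, with population, and their part in the results was not tested. B cell and plasma cell markers summed to 1215 to 1522 CPM in lymph node Id3- eTR, 1232 to 1517 in spleen Id3- eTR, 878 to 1087 in lymph node Id3+ cTR and 1280 to 1561 in spleen Id3+ cTR. The lowest sums were those of lymph node Id3+ cTR. The highest levels of the list were those of Ighm and Cd74, which reached 815 and 380 CPM. In lymph node Id3+ cTR, Ighm had 504 to 592 CPM and Cd74 162 to 221. Pax5 and Ebf1, defining factors of B cells, reached at most 4 and 3.2 CPM, whereas Cd79a, Cd79b and Ms4a1 of the same list reached 51.5, 130 and 24.4.

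Myeloid and dendritic cell markers summed to 796 to 842 CPM in lymph node Id3- eTR and 518 to 751 in the other 3 groups, most of it in Ctss and Cst3. S100a8 and S100a9 were at 0 in all 12 libraries. Lyz2 had counts in 11 of the 12 libraries and reached 137 CPM, and Cd68, Tyrobp and Fcer1g reached 29.1, 25.3 and 20.4 CPM. CD8 T and NK cell markers summed to 234.5 to 340 CPM in lymph node Id3- eTR and 352 to 391 in spleen Id3- eTR, above the 62.8 to 174 of Id3+ cTR. Ncr1 was at 0 and Eomes and Klrd1 reached at most 3.25 and 4.71 CPM. Cd8a, Cd8b1, Nkg7 and Ccl5 reached 47.5, 65.5, 180 and 175 CPM. Stromal markers at 0 were Cdh5, Cldn5, Plvap, Col1a2, Col3a1, Pdgfra, Pdgfrb, Pdpn and Ccl19. Pecam1, which T cells also express, was the sole tested gene of that list (1 gene), and its tissue-dependent change was -0.06 ± 0.23 with a sign that turned with the library left out, from -0.36 to 0.12. No marker gene of another cell type was called by edgeR, limma-voom or DESeq2, and 4 were higher and 0 lower at unadjusted p: Cd74 and Ighm of the B cell list, Alas2, an enzyme of haem synthesis in red cells, and Lta, a cytokine of the conventional CD4 list. Cd74, the invariant chain, was 0.73 ± 0.22 (adjusted p = 0.465), and Alas2 was 3.86 ± 1.21 (adjusted p = 0.493). Conventional CD4 T cell markers summed to 532 to 800 CPM over the 4 groups, which overlapped.

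**Figure D5:**
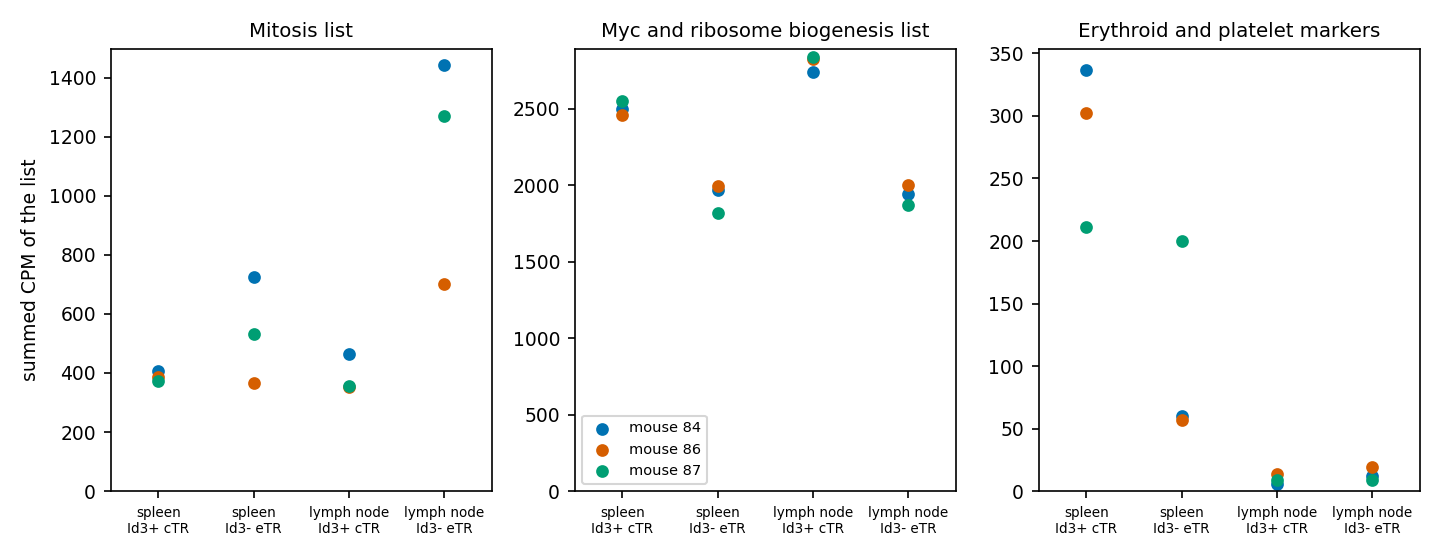
Summed CPM of the mitosis list, the Myc and ribosome biogenesis list and the erythroid and platelet markers in each of the 12 libraries, by group and coloured by mouse. Mitosis sums reached 701 to 1442 in lymph node Id3- eTR, Myc list sums were highest in lymph node Id3+ cTR, and erythroid and platelet sums were 57.0 to 337 in the spleen libraries against 5.30 to 19.0 in those of lymph node.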

How the data were processed

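RNA was sequenced from 18 libraries of sorted TR, 12 of which enter the contrast. The authors deposited counts for 37991 genes, as whole numbers without normalization. Tools listed without roles in the submitters' processing notes are HTSeq 0.4.1, TopHat, Bowtie, SAMtools, Picard and FastQC; a genome build is not given there. The highest count in a library was only 3306 to 4696, and whether abundant genes were capped was not tested. GENCODE M21 gave symbols for 32919 genes; the other 5072 held 0.891% of counts. The members, lists and genes were chosen with earlier results of these data known.

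Genes passing filterByExpr (minimum count 10) were scaled by TMM and fitted in all 18 libraries by group (6 groups, 12 residual degrees of freedom) with edgeR 4.0.16 (robust quasi-likelihood F test, two-sided, Benjamini-Hochberg over 12445 genes) in R 4.3.3. Groups without contrast libraries share the estimate of the spread. A gene was called at adjusted p under 0.05. CPM uses TMM-scaled totals, and per-mouse values use log2 CPM with a prior count of 2. Genes with 3 counts or fewer in any of the 4 groups, 768 in all, are given no fold. Sort genes, called genes with 3 of 3 mice on one side, and the list member called or with the smallest p were named by rule. The other genes named were chosen after their values were seen. Some genes, including members of the lists and of the genes next by p, are not reported here, and list values leave them out. Alternatives used limma 3.58.1 (voom), DESeq2 1.42.0, RLE, no filter, 12 libraries, a mouse block, thinning and omitted libraries. The code was tested on simulated data. Same-numbered libraries come from the same mouse by the labels, and their deviations from the group means correlated at -0.0228 to 0.0798 over 18 pairs.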

Additional observations from a re-analysis of the deposited data

Results flagged for a closer look

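Each of 3 genes is listed because its change from Id3+ cTR to Id3- eTR differed between lymph node and spleen by the test of that difference. The log2 difference was -1.76 for Itga4, -1.83 for P2rx7 and -1.73 for Cdca7l. Itga4 and P2rx7 parted between the organs in Id3- eTR, where both were called, and Cdca7l was called in neither population taken alone.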

How the results depend on the processing

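Under the alternatives, the count of genes with a tissue-dependent change was 3 with RLE size factors, 4 without a filter, 3 after thinning, 1 with limma-voom, 47 with DESeq2, 1 with the 12 libraries alone and 1 with the 2 lowest-total libraries left out. Omitting a library or a mouse gave 0 to 5, with 0 without mouse 87. The spleen count was 563 with the 2 lowest-total libraries left out and 632 to 1458 over the omissions, and the lymph node count 716 to 1562. Between the organs, Id3- eTR had 71 calls with limma-voom, 145 with DESeq2 and 3 to 39 over the omissions. Id3+ cTR had 0 with limma-voom, 108 with DESeq2, 3 with the 12 libraries alone, 2 after thinning, 0 with the 2 lowest-total libraries left out and 0 to 24 over the omissions. With mouse as a replicate block, justified since each mouse gave every group, 3 genes were called for the tissue-dependent change and 2 between the organs in Id3+ cTR, and no other count moved past 1.5 times. The causes of these shifts were not tested, except that omissions leave fewer samples.

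Over the 95 named genes, 16 of 2185 refits changed sign, all in 4 genes whose values lie near zero. Over the omissions Cd44 ran from -0.22 to 0.32, Apol9a from -0.50 to 0.31, Itgb7 from -0.088 to 0.24 and Pecam1 from -0.36 to 0.12. With the 2 lowest-total libraries left out, Itgb7 was -0.056 and Pecam1 0.082. With 3 mice per group the median standard error was 0.443, and the median half-width of the unadjusted 95% interval was 0.937. A call at adjusted p asked for more than an interval clear of zero. Nsg2 at 1.76 ± 0.29 and Ccp110 at 3.80 ± 0.75 were not called by edgeR. Differences well over 1 log2 unit could therefore also go uncalled.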
